A study of Homo sapiens with 2 samples.

Results

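Cytosolic ribosomal proteins are the protein components of the ribosome outside mitochondria, and their mRNAs were examined in RNA precipitated with an antibody against Argonaute2 (Ago2), the protein that carries microRNAs. The genes were those with a platform symbol of RPL or RPS plus digits, together with the stalk proteins RPLP0, RPLP1 and RPLP2 and RPSA, also known as a laminin receptor. Pseudogenes and the RPS6K kinases were left out. This gave 67 of the 18417 named genes, 43 of the large subunit and 24 of the small subunit. RefSeq names 87 protein-coding genes by the same pattern. Of these, a further 11 had only probe sets carrying several gene symbols, and 9 were not analysed here. RPLP0 and RPSA are among those 9, so neither has a value of its own below.

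The study compared A549 cells overexpressing miR-130b with A549 cells transfected with an empty vector, each as Ago2-precipitated RNA on 1 array. A549 is an established human lung adenocarcinoma line, and both groups were transfected. The labels give neither the vector, nor the time after transfection, nor whether clones or pools of cells were used. With 1 array per group, no value below has a replicate error, a test or a p-value, and each difference describes these 2 arrays. Every difference is on the log2 scale, miR-130b minus empty vector, so that a negative value means lower with miR-130b.

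Ribosomal protein mRNAs are among the most abundant and most evenly produced mRNAs of growing cells, since each ribosome needs 1 copy of nearly every protein. Most of them begin with a terminal oligopyrimidine (TOP) tract, an unbroken stretch of C and U right at the cap through which the LARP1 protein and the mTOR kinase adjust their translation. Many ribosomal protein genes also hold small nucleolar RNAs (snoRNAs) in their introns, which guide chemical modification of ribosomal RNA. In lung adenocarcinoma cells, as in other dividing cells, these genes are known for their link to growth rate.

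The overexpressed microRNA is shown because it separates the groups, and the start sites of the 4 kept genes with the lowest and the 4 with the highest differences because TOP tracts begin there. The mature strands of miR-130b are given with the seed (bases 2 to 8) in capitals, from RefSeq (GRCh38.p14, chr22, plus strand). The 3p strand lies at chr22:21653354-21653375 and the 5p strand at chr22:21653316-21653336.
miR-130b-3p: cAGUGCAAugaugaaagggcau
miR-130b-5p: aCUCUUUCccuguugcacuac

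Each gene line below holds 30 bases around the RefSeq start of the gene (GRCh38.p14), 15 before the start and 15 from it on, in the direction of transcription. Capitals mark the longest unbroken run of C or T that touches the 5 bases on either side of the start. The first 4 genes had the lowest differences of the 53 genes kept by the filter described below, and the last 4 had the highest. RefSeq lists 2 starts for RPL34, and the one with the longer run is shown. Positions are chr6:35468386-35468415 (plus strand) for RPL10A, chr2:3575245-3575274 (plus) for RPS7, chr9:127451392-127451421 (minus) for RPL12 and chr4:108620561-108620590 (plus) for RPL34. They are chr3:40457324-40457353 (plus) for RPL14, chr5:150449725-150449754 (minus) for RPS14, chr17:8383179-8383208 (minus) for RPL26 and chr11:8682777-8682806 (plus) for RPL27A.
RPL10A: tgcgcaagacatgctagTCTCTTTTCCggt
RPS7: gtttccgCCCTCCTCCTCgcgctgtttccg
RPL12: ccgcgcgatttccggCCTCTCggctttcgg
RPL34: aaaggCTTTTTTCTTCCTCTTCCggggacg
RPL14: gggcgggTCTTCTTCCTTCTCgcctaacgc
RPS14: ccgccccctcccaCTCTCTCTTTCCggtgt
RPL26: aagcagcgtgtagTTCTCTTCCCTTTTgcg
RPL27A: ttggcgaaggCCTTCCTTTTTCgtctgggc

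Runs of at least 8 pyrimidines at the start were present for 37 of 45 matched genes (82.2%), against 14.1% of the 27305 genes in the RefSeq promoter table, non-coding genes included. Among the genes shown, the run measured 10 bases for RPL10A, 11 for RPS7, 6 for RPL12 and 18 for RPL34, against 14 for RPL14 and RPL26 and 12 for RPS14 and RPL27A. The 37 genes with a run had a median difference of -0.19, and the 8 without had -0.13. Within 250 bases before and 50 after the start, on either strand, the ETS-type motif CCGGAAG occurred for 37.8% of the 45 genes and 12.2% of all genes. CTCGCGAG occurred for 11.1% and 1.23%, and TATAAA for 8.89% and 14.0%. The 17 genes with CCGGAAG had a median difference of -0.13, and the 28 without had -0.22. For CTCGCGAG the medians were -0.10 (5 genes with) and -0.18 (40 without), and for TATAAA -0.19 (4 with) and -0.17 (41 without). Whether any of these splits bears on the difference was not tested. A match is a description of letters in this window.

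Before the results, the arrays were checked against their labels. The probe set of MIR130B, the overexpressed gene, stood at 12.64 on the miR-130b array and 6.66 on the empty-vector array (63.3-fold higher). It need not measure the mature microRNA. AGO2 mRNA stood at 11.66 and 11.41. Of 6 epithelial markers 5 passed the filter on low values described below, with EPCAM (6.80 and 7.00) under it. Among the 5, CDH1 was lower with miR-130b (11.49 and 12.61), KRT19 and MUC1 were higher by 0.37 and 0.42, and the summed log2 level of all 6 was 64.8 with miR-130b and 65.3 with the empty vector. No measured alveolar type II, leukocyte or endothelial marker passed it. Of the fibroblast markers, COL1A1 passed (9.05 and 8.74), while the summed log2 level of the 4 listed was 29.1 with miR-130b and 28.1 with the empty vector. Both samples are labelled A549, and whether RNA of any other cells is part of the values below was not tested. No array of RNA before precipitation or of a precipitate without the Ago2 antibody was analysed here, so the amount of an mRNA and its share bound to Ago2 cannot be told apart. The same holds, in such bulk samples, for fewer cells of a type and less RNA per cell.

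Ribosomal protein mRNAs were lower in the miR-130b precipitate across both subunits, by a small and similar amount. A filter on low values kept a gene whose mean level reached 8.64, the median over the named genes. It left 53 of the 67 genes, 34 large and 19 small. Of these, 52 were lower as deposited, 49 after cyclic loess and 48 after quantile normalization, where 48.4% of all 9209 kept genes were lower as deposited. The median difference was -0.17, against 0.010 over all kept genes. The middle 50% of the ribosomal protein genes lay between -0.27 and -0.10, while that of all kept genes spanned 0, from -0.20 to 0.19.

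Few of the differences were large. At least 1.2-fold lower were 15 of the 53 genes (28.3%), against 19.5% of all kept genes. None was at least 1.2-fold higher, where 18.5% of the kept genes were. None was 2-fold lower or higher, against 1.60% and 1.32% of the kept genes. Probe sets of 1 gene differed from each other with a pooled SD of 0.16 (356 kept genes with several probe sets), which bears on the value of a single gene.

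**Figure D1:**
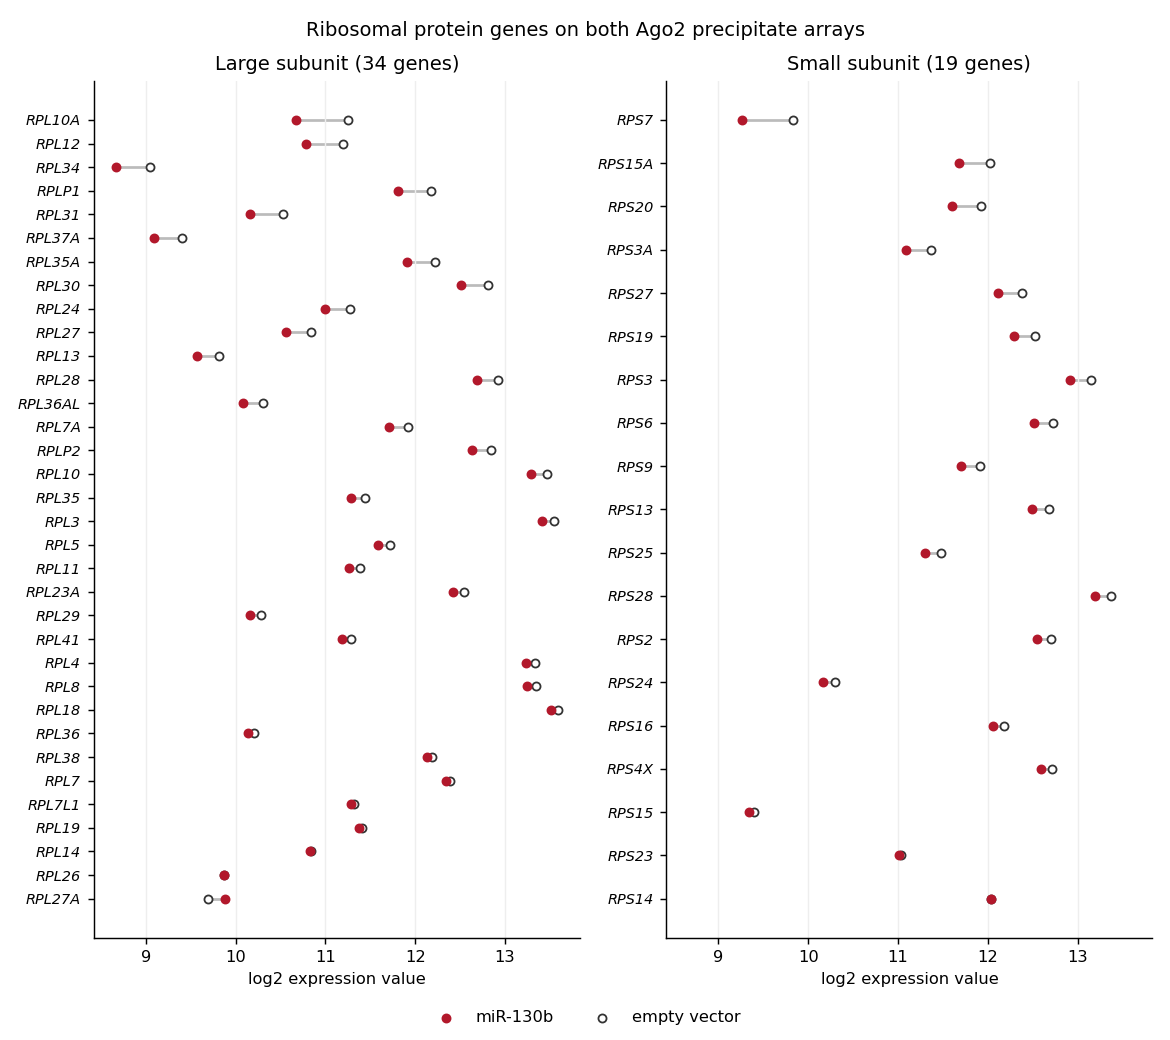
Log2 expression values of the 53 kept ribosomal protein genes on the miR-130b array (filled points) and the empty-vector array (open points), 1 array per group, ordered by difference with the largest decrease at the top of each panel. The miR-130b point lies left of the empty-vector point for 52 genes as deposited (48 after quantile normalization and 49 after cyclic loess) and right of it for RPL27A.

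Among large subunit genes, the largest decrease was that of RPL10A, whose protein forms the L1 stalk beside the site where spent tRNA leaves. RPL10A stood at 10.67 with miR-130b and 11.25 with the empty vector, which is 1.49-fold lower. RPL12, at the base of the stalk that receives elongation factors, stood at 10.78 and 11.20 (1.33-fold lower). Its 4 probe sets ranged from -0.46 to -0.34, so none of them was near 0. RPLP1, an acidic protein of the same stalk, stood at 11.81 with miR-130b and 12.18 with the empty vector, and its partner RPLP2 at 12.63 and 12.84. The 3 measured stalk genes had a median of -0.36, below that of the whole large subunit (-0.15). With 3 genes, this is a description of single values.

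Other large subunit genes with decreases past 1.2-fold lie in different places of the subunit. RPL34 stood at 8.67 with miR-130b and 9.05 with the empty vector, as the mean of 2 unlike probe sets described below. RPL31, at the rim of the tunnel through which the new protein leaves, stood at 10.16 and 10.53. RPL37A, a zinc-binding protein, stood at 9.09 and 9.41. RPL35A and RPL30 stood at 11.91 and 12.51 with miR-130b, against 12.22 and 12.81 with the empty vector. RPL24, which bridges the subunits, differed by -0.28, as did RPL27.

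The tunnel rim did not move as a unit. Besides RPL31 (-0.36), RPL35 differed by -0.15, RPL23A, a docking site for the signal recognition particle, by -0.12, RPL19 by -0.027 and RPL26 by -0.0026. RPL26 was at 9.87 on both arrays, and at 0.039 after quantile normalization and 0.0051 after cyclic loess. RPL17, below the filter, is described further on. The proteins RPL5 and RPL11, which carry 5S ribosomal RNA into the ribosome and bind MDM2 when ribosome assembly fails, differed alike, by -0.14 and -0.13. RPL5 stood at 11.58 with miR-130b and 11.72 with the empty vector, and RPL11 at 11.26 and 11.39.

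At the other end of the large subunit were RPL27A (0.19), RPL26, RPL14 (-0.0092), RPL19 and RPL7L1 (-0.036). RPL14 stood at 10.83 with miR-130b and 10.84 with the empty vector, a difference that was 0.018 after quantile normalization and 0.0010 after cyclic loess. RPL27A was the 1 kept gene with a higher mean (9.89 against 9.70), and that value came from a single probe set. The 2 probe sets of RPL7L1 had opposite signs, 0.046 for the brighter and -0.12 for the dimmer.

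Small subunit genes were lower in 19 of 19 cases as deposited, 18 after cyclic loess and 17 after quantile normalization. The shares of all kept genes that were lower were 48.4%, 47.3% and 45.1% in the same order. RPS7, a small subunit protein that binds MDM2 and is mutated in some cases of Diamond-Blackfan anaemia, stood at 9.27 with miR-130b and 9.83 with the empty vector (1.48-fold lower). RPS15A stood at 11.68 and 12.02 (1.27-fold lower). RPS20, of the subunit's head, stood at 11.60 and 11.93 (1.25-fold lower). RPS7 was thus apart from the next small subunit gene by a gap wider than that between RPS15A and the median.

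RPS3A and RPS27, at 11.09 and 12.12 with miR-130b against 11.36 and 12.38 with the empty vector, were the other small subunit genes past 1.2-fold. RPS19, the most often mutated gene in Diamond-Blackfan anaemia, differed by -0.23, as did RPS3, which lines the mRNA entry channel. RPS6, the substrate of the S6 kinases, stood at 12.51 and 12.73 (-0.22). The genes closest to 0 were RPS14, whose loss contributes to the 5q- syndrome, at 12.04 on both arrays (-0.0044, and 0.017 after quantile normalization and 0.016 after cyclic loess), RPS23, of the decoding centre (-0.025, and 0.00050 after quantile normalization), RPS15 (-0.058), RPS4X (-0.12) and RPS16 (-0.13). The mean of RPS15 joins a bright probe set at 0.0022 and a dim one, under the filter, at -0.12.

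The subunits did not differ by more than the choice of probe sets. The median was -0.15 for the large subunit and -0.19 for the small subunit. At least 1.2-fold lower were 10 of 34 large and 5 of 19 small genes, against 19.5% of all kept genes. The difference of the medians, large minus small, was 0.043. It was -0.0059 with the brightest probe set per gene and -0.0039 once probe sets with several symbols were added.

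Structural and medical groupings were set side by side by their medians. The 7 kept genes of the small subunit's head had a median of -0.17, and the 12 outside it had -0.20. The 13 kept Diamond-Blackfan genes had a median of -0.17, equal to that of the 38 other kept genes without paralogs. Proteins found in all domains of life (23 kept genes) had a median of -0.14, and the 28 kept genes outside that list, paralogs left out, had -0.22. At least 1.2-fold lower were 4 of the 23 and 11 of the 28, against 19.5% of all kept genes. These lists were drawn from general knowledge and the last contrast is a description of the 2 arrays.

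**Figure D2:**
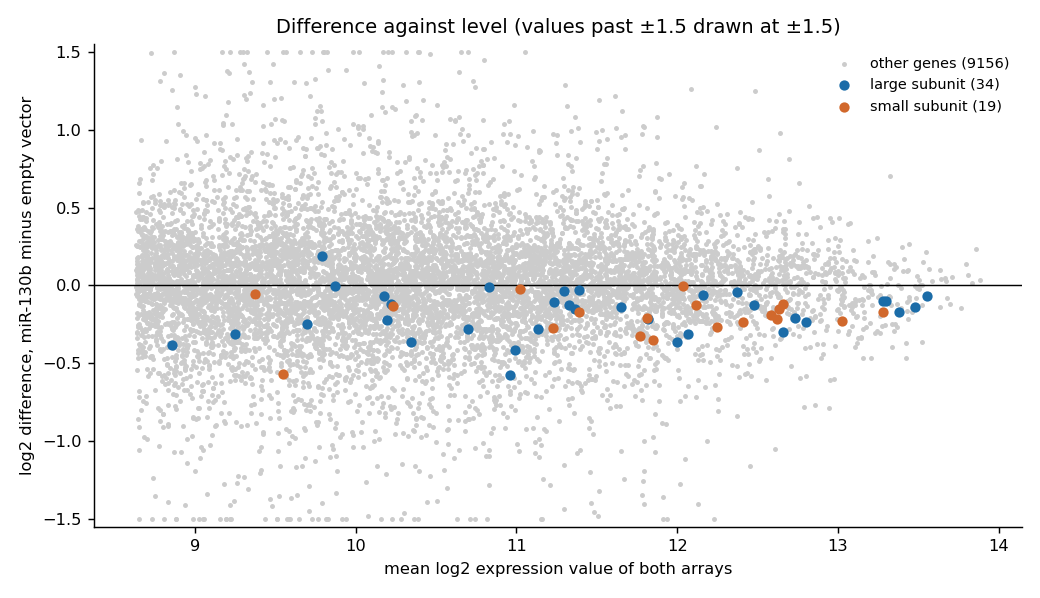
Log2 difference (miR-130b minus empty vector) against the mean log2 expression value of both arrays for the large subunit (34 genes), the small subunit (19 genes) and the other 9156 kept genes. Of the ribosomal protein genes, 52 lie under 0 as deposited (48 after quantile normalization and 49 after cyclic loess) and RPL27A lies above it, while the other genes lie on both sides of 0.

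The difference was weakly related to the level on the array. Across the 53 genes, the difference and the mean level had a Pearson coefficient of 0.12 and a Spearman coefficient of 0.086; both measures come from the same arrays, and a probe's brightness also depends on its sequence. Over the other settings tried, the Spearman coefficient lay between 0.051 without a filter and 0.245 when each gene was read from its brightest probe set. Among other kept genes the Spearman coefficient was -0.0057. In the band from the filter to 10 the ribosomal protein genes had a median of -0.25 (7 genes), against 0.014 for 3656 other genes. Of the 7, RPL34, RPS15, RPL27A, RPS7 and RPL13 fall in this band as averages of probe sets at least 1 log2 unit apart in level.

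The medians of the brighter bands were also below 0, and closer to it. From 10 to 11 the medians were -0.22 (9 genes) and 0.0096 (2620 other genes), from 11 to 12 they were -0.17 (15 genes) and 0.012 (1874), and from 12 to 13 they were -0.19 (15 genes) and 0.023 (843). At 13 and above the other genes were lower too. There the 7 ribosomal protein genes had a median of -0.14, with all 7 lower, and the 163 other genes had -0.054, with 59.5% lower. The brightest ribosomal protein genes, RPL18 (13.52 with miR-130b and 13.59 with the empty vector) and RPL3 (13.41 and 13.55), belong to that band.

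Several probe sets of 1 gene showed how far readings of that gene agreed within the same 2 arrays. Their spread is not the error of a difference between the arrays, which would need replicate arrays. Of 23 ribosomal protein genes with more than 1 probe set, 10 had probe sets whose differences lay within 0.1 of each other. RPS3A, a small subunit protein also known for a role in cell transformation, had 5 probe sets between -0.30 and -0.24. RPS28 had 3, all at -0.17, RPS2 had 3 between -0.16 and -0.15, and RPL24 had 2 at -0.29 and -0.28. Probe sets of genes with processed pseudogenes may share probes, so such agreement is not independent.

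In the genes with the widest disagreement, a bright probe set was lower and a dim one was lower by less, near 0 or above it. RPL34 differed by -0.64 in its bright probe set (10.87 with miR-130b and 11.51 with the empty vector). Its dim probe set differed by -0.13 (6.47 and 6.59) and lies under the filter level of 8.64, where array background adds to the signal. RPL29 differed by -0.38 (10.78 and 11.16) and by 0.14 (9.54 and 9.41). RPL13 differed by -0.39 in its brightest and by -0.0044 in its dimmest probe set.

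RPL27A had the widest spread of all. Its brightest probe set stood at 11.03 with miR-130b and 11.29 with the empty vector (-0.27), the second differed by 0.017, and the third stood at 9.44 and 8.62 (0.82). Without the third, RPL27A stood at 10.11 and 10.24 (-0.12) and 53 of 53 kept genes were lower. With the brightest probe set per gene, 52 of 54 were lower, where 48.4% of all kept genes were lower in the main setting. RPL7L1 (0.046) and RPS15 (0.0022) were then above 0. Among the 14 genes whose brightest and dimmest probe sets lay at least 1 apart in mean log2 level, the brightest had the lower difference in 9, with a median of -0.27 for the brightest and -0.12 for the dimmest.

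**Figure D3:**
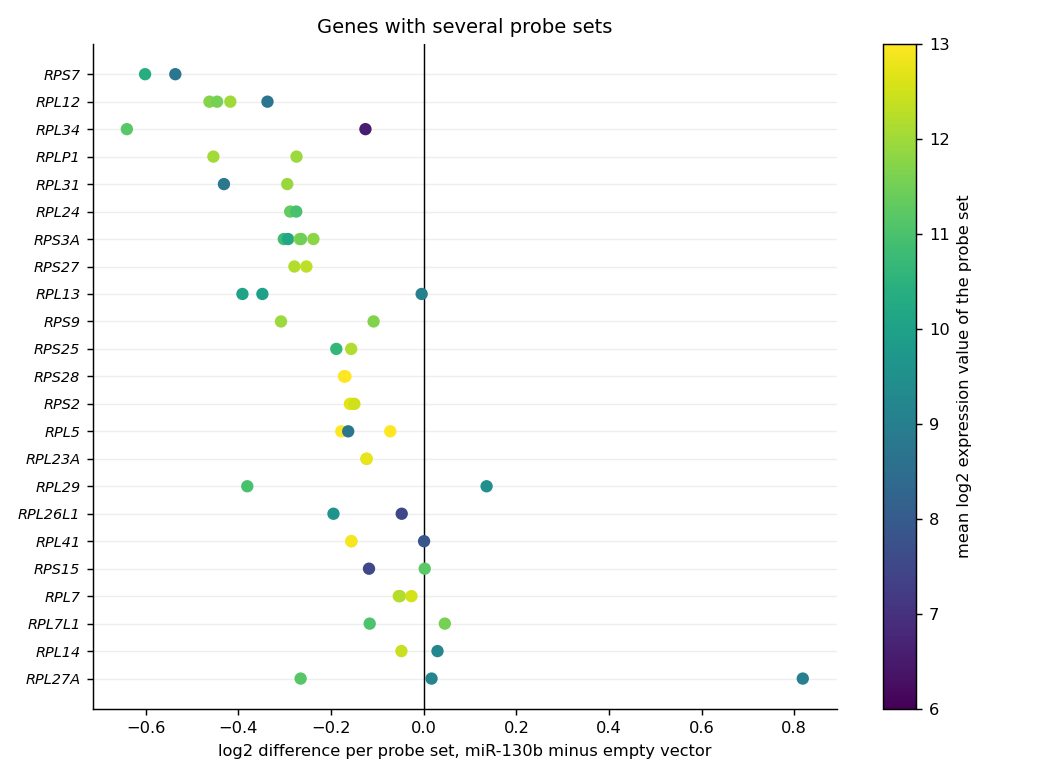
Log2 difference (miR-130b minus empty vector) of each probe set of the 23 ribosomal protein genes with several probe sets, coloured by the probe set's mean log2 expression value. RPS3A, RPS28 and RPS2 have tightly grouped probe sets, whereas those of RPL34, RPL29 and RPL27A spread by over 0.5.

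Of the 67 ribosomal protein genes, 14 lay under the filter, where array background adds to the signal. Of these, 6 were canonical genes, all lower, with a median of -0.33. Without a filter, 61 of the 67 genes were lower, against 40.6% of all 18417 genes, and 21 were at least 1.2-fold lower, against 14.7%. RPL32 stood at 8.08 with miR-130b and 8.60 with the empty vector, and RPL17, of the tunnel rim, at 7.75 and 8.22. RPS29 differed by -0.36, RPL22 by -0.29, RPS21 by -0.26 and RPL23 by -0.22. The 6 thus had a lower median than the kept genes, whereas genes under the filter as a whole had a median of 0.081.

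Paralogs, gene copies that can replace a canonical subunit protein in certain tissues, went in both directions. RPL22L1, which is expressed when RPL22 is lost, stood at 6.91 with miR-130b and 7.66 with the empty vector, the lowest difference of all 67 genes (-0.75). RPL22 itself differed by -0.29. RPS27L, a p53-induced copy of RPS27, differed by -0.30 and RPS27 by -0.27. RPL22L1, RPL22 and RPS27L lie under the filter with 1 probe set each, so their folds are uncertain. RPL36AL stood at 10.08 and 10.30 (-0.22), and RPL36A, measured by probe sets shared with other symbols, differed by -0.16.

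The muscle-specific RPL3L, the testis copy RPL10L and RPL39L were at 0.17, 0.10 and 0.14, under the filter, where their canonical partners RPL3, RPL10 and RPL39 were at -0.14, -0.17 and -0.48 (the last from shared probe sets). Those 3 paralogs stood between 7.31 and 7.99, in a range where most genes were higher (2791 of 4263 genes within 1.5 log2 units under the filter). RPL7L1, a ribosome biogenesis factor related to RPL7, differed by -0.036 and RPL7 by -0.044. RPL26L1 differed by -0.12. The remaining 2 genes under the filter were the Y-linked copies of RPS4X, which were higher by less than 1.2-fold.

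Probe sets that carry a ribosomal protein symbol together with other symbols were set beside these values. Of 47 such probe sets, 45 were lower, where 40.6% of all 18417 genes were lower without a filter and 48.4% of the kept genes. Most of the 47 lay above the filter level, and the 3 of RPS18 held the same values. RPL21, left out above because its probe sets also carry pseudogene symbols, had 5 of them with a mean of 9.41 on the miR-130b array and 10.10 on the empty-vector array. Their differences lay between -0.75 and -0.67, a larger decrease than that of any kept ribosomal protein gene. RPS18 and RPL39 differed by -0.45 and -0.48, and RPS10, RPL9, RPL13A and RPL6 by -0.36, -0.32, -0.26 and -0.22. With probe sets of a single ribosomal protein symbol among several added, 62 of 63 kept genes were lower, with a median of -0.22. In the main setting 48.4% of all kept genes were lower. Some of these also carry snoRNA symbols, and without those the count was again 62 of 63, with a median of -0.21.

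SnoRNAs that lie inside ribosomal protein genes were lower by more than the genes around them. RefSeq places 60 snoRNA genes within the span of 29 ribosomal protein genes, and 41 snoRNA entries in 23 of these genes could be measured, 8 of them with probe sets that also carry the host's symbol. Of the 41, 40 were lower, with a median of -0.60, where 40.6% of all 18417 genes were lower without a filter. SNORD102 was at 4.96 on both arrays. Of the 41 entries, 24 lay in a gene that was itself measured, and in all 24 the snoRNA was lower than its host as deposited. The median was -0.62 for these snoRNAs and -0.21 for their 15 host genes. Of the 18 that have probe sets of their own, 18 were below the host as deposited and after cyclic loess and 17 after quantile normalization. The 24 entries include SNORA3A and SNORA3B, both set against the RPL27A mean of 0.19, which came from a single probe set. The brightest RPL27A probe set differed by -0.266 and SNORA3A by -0.261, so against that probe set SNORA3A was not lower.

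RPS20 and its guest showed a wide gap. SNORD54 stood at 4.84 with miR-130b and 6.26 with the empty vector (-1.41), while RPS20 differed by -0.33. SNORD15B, in RPS3, stood at 7.61 and 8.99 (-1.38), and its neighbour SNORD15A at 7.65 and 8.14 (-0.49), while RPS3 differed by -0.23. In RPL7A, the probe set shared with SNORD24 stood at 8.81 and 9.80 (-0.99), against -0.21 for RPL7A. All of these snoRNA values except that of SNORD24 have a mean under the filter, so their folds are uncertain.

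Among snoRNAs at or above the filter, the median difference from the host was -0.45 (11 entries), against -0.48 over all 24. That -0.45 is the value of SNORA3A against the RPL27A mean, whose positive sign came from a single probe set. The 7 of these entries with probe sets of their own had a median of -0.27. SNORD42A, in RPL23A, stood at 8.38 with miR-130b and 9.28 with the empty vector (-0.90), and RPL23A differed by -0.12. SNORA70, whose probe sets also carry the symbol of its host RPL10, stood at 11.60 and 12.32 (-0.72), and RPL10 differed by -0.17. SNORA3A, in RPL27A, stood at 13.14 with miR-130b and 13.40 with the empty vector (-0.26), and its neighbour SNORA3B, under the filter, differed by -0.38, while the mean of RPL27A was at 0.19. SNORA10, in RPS2, differed by -0.43 (10.49 and 10.92), and RPS2 by -0.15. SNORA52, in RPLP2, differed by -0.22 and RPLP2 by -0.21. C/D-box snoRNAs, which guide 2'-O-methylation, had a median of -0.63 (26 entries), and H/ACA-box snoRNAs, which guide pseudouridylation, had -0.60 (15 entries).

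The size of these decreases was not particular to ribosomal protein introns. At or above the filter, 17 nested entries had a median of -0.63, and 13 of them with probe sets of their own had -0.47. The 38 snoRNA genes outside ribosomal protein genes had a median of -0.51 with all 38 lower, against 48.4% of all kept genes. Ribosomal protein genes with nested snoRNAs had a median of -0.21 (17 kept genes), and those without had -0.14 (36 kept genes).

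**Figure D4:**
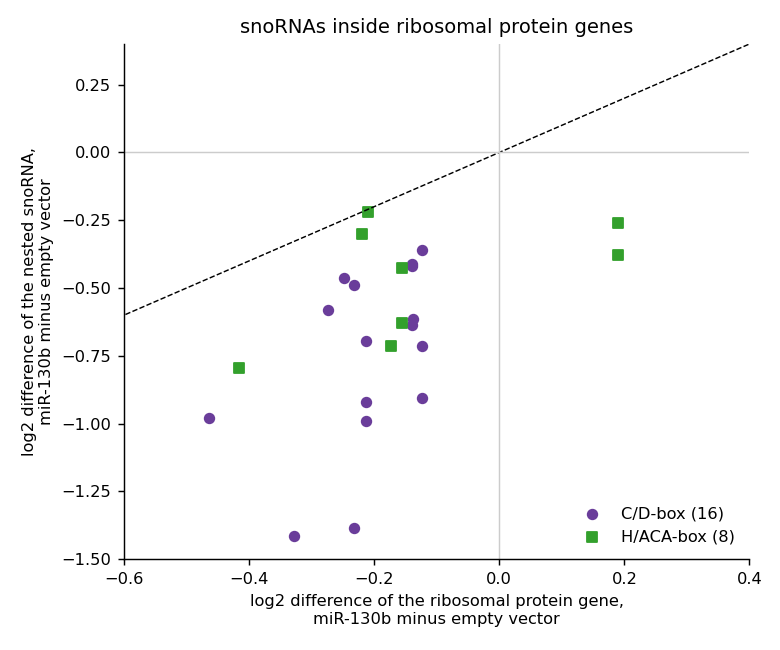
Log2 difference (miR-130b minus empty vector) of 24 snoRNA entries against that of the ribosomal protein gene that contains them, for 16 C/D-box and 8 H/ACA-box entries, with a dashed line where both are equal. As deposited, every point lies under the line, with SNORA52 in RPLP2 closest to it. After quantile normalization 1 of the 18 entries with their own probe sets lies above it. The points of RPL27A use the mean of its probe sets.

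Other genes of translation were compared to see how far the shift extended. Of 18 measured genes from a list of other TOP mRNAs, 17 were kept and 15 of them were lower (also after quantile normalization and cyclic loess), with a median of -0.14, against 48.4% of all kept genes. At least 1.2-fold lower were 3 of the 17, against 19.5% of all kept genes. They were EEF2, the translocation factor (13.07 with miR-130b and 13.38 with the empty vector, -0.31), EIF3H, an initiation factor subunit (-0.29), and FAU, which encodes the ribosomal protein eS30 fused to a ubiquitin-like protein (10.35 and 10.62, -0.27). The higher 2 were NAP1L1, a histone chaperone (0.16), and BTF3, of the nascent polypeptide-associated complex (0.065). EEF1A1, named after its values were seen, differed by -0.083.

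Mitochondrial ribosomal proteins were closer to 0. Of 63 kept genes 39 were lower and 24 higher, with a median of -0.036, where 48.4% of all kept genes were lower. After quantile normalization 34 were lower, against 45.1% of all kept genes. The 2 lowest and 2 highest differences were those of MRPS18B (-0.58), MRPS10 (-0.50), MRPL16 (0.28) and MRPL39 (0.24). Their middle range reached from -0.17 to 0.062, so that it overlapped with that of the cytosolic genes in part.

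Ribosome biogenesis factors were divided, with 16 of 33 lower, against 48.4% of all kept genes, and a median of 0.025. RIOK2, a kinase of late small subunit maturation, differed by -0.46, and RPF2, which loads the 5S particle with RRS1, by -0.39. RRS1 itself was at 0.36, and TCOF1, a nucleolar cofactor of ribosomal RNA synthesis, at 0.49.

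Of 13 genes that regulate TOP mRNAs, 8 were lower, against 48.4% of all kept genes, with a median of -0.078. The translational repressors EIF4EBP1 and EIF4EBP2, targets of mTOR, went opposite ways, with EIF4EBP1 at 10.08 with miR-130b and 10.84 with the empty vector (-0.76) and EIF4EBP2 at 10.90 and 10.17 (0.73). MLST8, an mTOR partner, was at -0.34 and RPTOR at 0.18. LARP1 (0.035) and MYC (-0.0090), both named after their values were seen, were close to 0, and their signs were not compared across scalings.

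**Figure D5:**
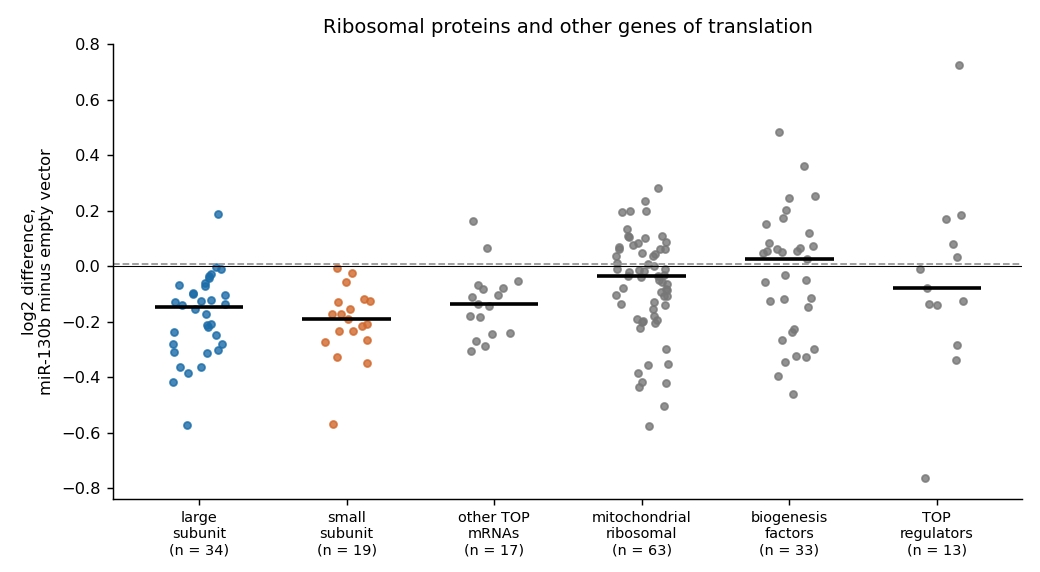
Log2 difference (miR-130b minus empty vector) of each kept gene for the large and small subunits, other TOP mRNAs, mitochondrial ribosomal proteins, ribosome biogenesis factors and TOP regulators, with the median as a bar and the median of all kept genes (0.010) as a dashed line. Both subunits and the other TOP mRNAs have medians between -0.19 and -0.14, and the mitochondrial and biogenesis lists lie at -0.036 and 0.025.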

How the data were processed

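RNA precipitated with an anti-Ago2 antibody was measured on 1 Affymetrix array per group, after biotin labelling of whole-transcript cDNA, per the labels. The deposited values are log2 expression values for 33297 probe sets; the base was taken from their range (1.95 to 14.2), and of the software, background correction and normalization nothing is stated per the labels. The near-equal medians (7.77 in both) fit arrays scaled to a common level, so that a difference is relative to the rest of the array. Of 21214 annotated probe sets, 19460 with 1 symbol were averaged per gene. Members kept their platform symbols, and the others were updated through RefSeq, which matched 19429 of them. snoRNAs were called nested by RefSeq positions (GRCh38.p14), whatever the strand.

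Members and lists were chosen with earlier results of these data known. Named genes were the 8 lowest and 5 highest of each subunit, those under the filter, paralogs with partners, stalk, 5S and tunnel genes, genes with several probe sets, and 2 each way in each other list; shared-probe-set genes, snoRNAs and others were added after their values were seen. The summaries were checked on simulated data. The number of arrays limits the precision. Python 3.11.15, pandas 2.3.3, R 4.3.3 and limma 3.58.1 were used.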

Additional observations from a re-analysis of the deposited data

Results flagged for a closer look

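A probe set that carries the symbols of both RPS12 and the non-coding RNA gene H19 lay outside the gene-level values and was higher with miR-130b, at 8.73 on the miR-130b array and 8.25 on the empty-vector array, a difference of 0.48. Because it carries both symbols, which of the 2 RNAs it measures is not known. It was looked at because it is the 1 shared probe set at least 1.2-fold higher. The probe set shared by RPS12 and SNORA33 differed by -0.60.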

How the results depend on the processing

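Over 7 planned settings and 3 chosen after seeing the data, the median of the ribosomal protein genes stayed below 0, from -0.22 to -0.14. It was -0.14 after quantile normalization and -0.22 with probe sets of several symbols added. With those added, the large subunit median was -0.22. At least 1.2-fold lower were then 26 of 63 genes, against 19.5% of all kept genes in the main setting. With the brightest probe set per gene the large subunit median was -0.19. The difference of the medians, large minus small, was -0.0059 with the brightest probe sets and -0.0039 with shared probe sets added. When shared probe sets with a snoRNA symbol were left out of that addition, the median was -0.21 overall and for the large subunit. Large minus small was then -0.0079, and 22 of 63 genes were at least 1.2-fold lower, against the same 19.5%. At a 1.5-fold threshold, 0 of 53 genes were lower, and the share of all kept genes at that threshold was not counted. Of 275 recomputed differences of 55 named genes, 272 moved by less than the pooled probe-set SD of 0.16. RPL29 (-0.38), RPL34 (-0.64) and RPL27A, which turned to -0.27, moved further, all with the brightest probe set. No paired analysis was possible because each group has 1 array.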

Other observations

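Probe sets with a single ribosomal protein pseudogene symbol were left out above. Of 21, 18 were lower with miR-130b, with a median of -0.23, where 40.6% of all 18417 genes were lower without a filter. RPS10P7 stood at 7.32 with miR-130b and 8.29 with the empty vector (-0.97), and RPL13AP5 at 13.11 and 13.41 (-0.31). At or above the filter, 5 of 6 were lower, against 48.4% of all kept genes, with a median of -0.28. Such probe sets can share sequence with the mRNA of the parent gene.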
